A study of Homo sapiens with 12 samples.

Results

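Transfection of PANC-1 cells with a control small interfering RNA was compared with exposure of the same cells to the vehicle DMSO. The comparison took the 3 libraries labelled siRNA control, here siGL3 after the firefly luciferase message that the siRNA is directed against, and the 3 libraries labelled DMSO, 6 of the 12 libraries of the series, and covered all 14720 genes whose normalised count averaged 5 or more. The study was designed to silence or inhibit myoferlin (MYOF), and its other libraries were 3 of cells that received a MYOF siRNA (siMYOF) and 3 of cells given 50 nM of the myoferlin-binding compound WJ460. PANC-1 is an established human pancreatic ductal adenocarcinoma line, labelled wild type in every group and grown in DMEM with fetal serum and without antibiotics. All libraries carry 48 h in their labels. For siRNA this time ran, per the study's methods, from the wash that ended a calcium phosphate transfection, so transfected cells had been in contact with siRNA and calcium phosphate precipitate before those 48 h. The siRNA, the transfection procedure, the wash and medium change, the longer culture and the absence of DMSO therefore set siGL3 apart from DMSO together and cannot be told apart. No untreated or mock-transfected cells were analysed here, and the final DMSO percentage is not given in the sources used here.

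A control siRNA has no intended target in human cells, but it enters the same machinery as any other. Argonaute proteins load 1 strand of the duplex as the guide and discard its partner, and the guide pairs with messages mainly through its seed, the bases near its 5' end, much as a microRNA does. Partial matches in 3' untranslated regions (3' UTRs) can lower unintended messages, double-stranded RNA can be sensed by innate immune receptors, and calcium phosphate precipitates are taken up by endocytosis and carried to lysosomes, where calcium and phosphate are released. These are the processes for which gene lists were followed, beside lists for general cell functions.

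The batch labels put siGL3 replicate 1 and siMYOF replicate 1 in an early batch and all other libraries, including every DMSO library, in a late batch. The 6 libraries held between 12335147 and 19090926 reads. The early siGL3 library stood apart: on log2 values its correlation across genes with each of the other 5 libraries, its own group included, was 0.948 to 0.954, while siGL3 replicates 2 and 3 correlated at 0.989, the DMSO libraries at 0.992 among themselves, and late siGL3 with DMSO libraries at 0.978 to 0.981. The early library had reads for 23060 genes against 19144 and 19754 in its late partners. Between the early and the late batch, 6628 genes differed (45% of genes tested), 72 of them lower and 83 higher in early libraries by over 3 on the log2 scale. MGAT2, a Golgi glycosyltransferase gene, was at 0.672 normalised counts in the early siGL3 library and at 592 and 570 in the late ones, and FTH1, the ferritin heavy chain, at 200.3 against 9442 and 11728. The mitochondrial transfer RNA gene MT-TP moved the other way, from 15.8 and 15.9 in late siGL3 libraries to 1083 in the early one. Each result below therefore carries the batch as a term, estimated from both siRNA groups. A fit of late libraries only, with 2 siGL3 and 3 DMSO libraries, was set beside it. Each gene given below as higher or lower with siGL3 passed the test in the same direction in that fit. The exception is the pair of lower interferon-stimulated genes, whose late count is given with them. Of 59 gene lists, 57 had late counts within 2 of those given, and the others were the G2/M and cytosolic ribosomal protein lists, whose late counts are given with them.

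Transfected cells differed from vehicle-treated cells in 4720 genes. Of these, 2363 were higher with siGL3 (16.1% of genes tested) and 2357 lower (16% of genes tested), by limma on log2(normalised count + 1) with an adjusted p under 0.05 (Benjamini-Hochberg). With late libraries only the counts were 2386 higher and 2329 lower, and 4317 genes were called in both fits in the same direction. Most differences were modest. Only 262 genes rose and 302 fell by at least 1 on the log2 scale. Whether a gene's 3 siGL3 libraries lay wholly above or below its 3 DMSO libraries does not depend on the batch term: 16.1% of genes tested had all siGL3 libraries above and 15.2% had all below, and among genes called these were 1475 of the higher and 1378 of the lower. Scaling by total reads in place of the median-of-ratios factors moved the median gene to -0.07 and turned the split to 1764 higher and 2974 lower. Without a batch term 760 genes were higher and 571 lower, and with only the 6 siGL3 and DMSO libraries and no batch term 333 were higher and 194 lower. The study's methods describe separately seeded cultures for the knockdown but say nothing on this of the DMSO libraries, which differed from each other by 1.47 to 2.33 times the sampling variance per gene, against 8.28 times between siGL3 replicates 2 and 3. The p-values thus rest on a spread that may be technical in part.

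MYOF was not lowered detectably by the control siRNA. It stood at 12786 normalised counts in the early siGL3 library, at 20169 and 17823 in the late ones and at 21147, 20492 and 19950 in DMSO, where the groups overlapped. Its log2 difference was -0.32 ± 0.25 (SE, adjusted p = 0.37, limma), and -0.11 in late libraries (adjusted p = 0.39). The siMYOF libraries held 3470, 2372 and 2003. PANC-1 identity was checked with 10 defining genes, whose summed level was 44526 to 124086 in siGL3 and 110131 to 111122 in DMSO libraries, the lowest in the early library. Of 13 acinar and endocrine pancreas genes 9 were at 0 in all 6 libraries, including INS, GCG and CPA1, and their summed level was 6.72 to 7.90 in siGL3 and 2.95 to 12.8 in DMSO. Of 10 fibroblast markers, DCN, LUM, FAP and POSTN were at 0 throughout, and the summed level of the list was 529 to 1500 in siGL3, lowest in the early library, and 1088 to 1125 in DMSO. Of its 3 members tested 2 were higher and 1 lower. The summed level of 10 leukocyte and endothelial markers was 14.1 to 40.7 in siGL3 and 7.72 to 15.7 in DMSO. The part of these markers in the results was not tested.

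Large rises and falls are described for genes with a mean of at least 50 normalised counts, no overlap between the groups and a call in both fits. Among these GPX3 rose most. This gene encodes a secreted glutathione peroxidase and was at 598, 672 and 902 normalised counts in siGL3 libraries 1 to 3 and at 106, 96.0 and 94.4 in DMSO, a log2 difference of 2.99 ± 0.21 (SE, n = 3 and 3, limma adjusted p = 2.5e-07). All 3 siGL3 libraries lay far above DMSO, the early one lowest. LGALS3BP, a secreted galectin-binding glycoprotein induced by interferon, was at 193, 210.0 and 254 against 48.2, 51.8 and 47.2, a difference of 2.24 ± 0.17. CES1, a carboxylesterase of the endoplasmic reticulum, was at 137, 133 and 99.2 against 30.5, 20.96 and 31.5. ALDH2, the mitochondrial aldehyde dehydrogenase, was at 319, 353 and 408 against 115, 100.4 and 116. None of these groups overlapped, and the early library did not stand out from its partners in CES1 or ALDH2. STC1, which encodes the secreted hormone stanniocalcin-1, was at 360, 456 and 344 against 122, 109 and 92.4. The remaining genes among the 12 largest rises had log2 differences of 1.68 to 2.11: the myosin light chain MYL9, the biliverdin reductase BLVRB, the steroid dehydrogenase HSD17B14, the innate kinase IKBKE, the autophagy protein GABARAPL1, TMEM51-AS1 and PLEKHB1. Their late-library values were 1.57 to 2.07.

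Several of the largest falls separated the groups widely. CRLF3, a cytokine receptor-like factor, was at 120, 125 and 108 normalised counts with siGL3 and at 489, 496 and 481 with DMSO, a log2 difference of -2.08 ± 0.10 (SE, n = 3 and 3, limma adjusted p = 8.0e-10) with the early library in the middle of its group. HERPUD2, related to the HERPUD1 protein of endoplasmic reticulum degradation, was at 202, 150.2 and 104 against 479, 430.2 and 432. CDC42SE2, a small effector of the GTPase CDC42, was at 543, 355 and 278 against 1015, 995 and 1012. In both genes the early library was the highest of its group but stayed below every DMSO library. C4orf46 was at 218, 236 and 182 against 570.1, 591 and 610, and REV3L, the catalytic subunit of translesion polymerase zeta, at 769, 500.2 and 409.9 against 1237, 1245 and 1170. RUNX2, a transcription factor of bone formation, was at 67.9, 50.8 and 54.3 against 189, 147 and 144. The other 6 of the 12 largest falls, FLRT1, RNF227, NRARP, HOXB6, LINC01106 and SNHG7, had log2 differences of -1.58 to -1.31.

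**Figure D1:**
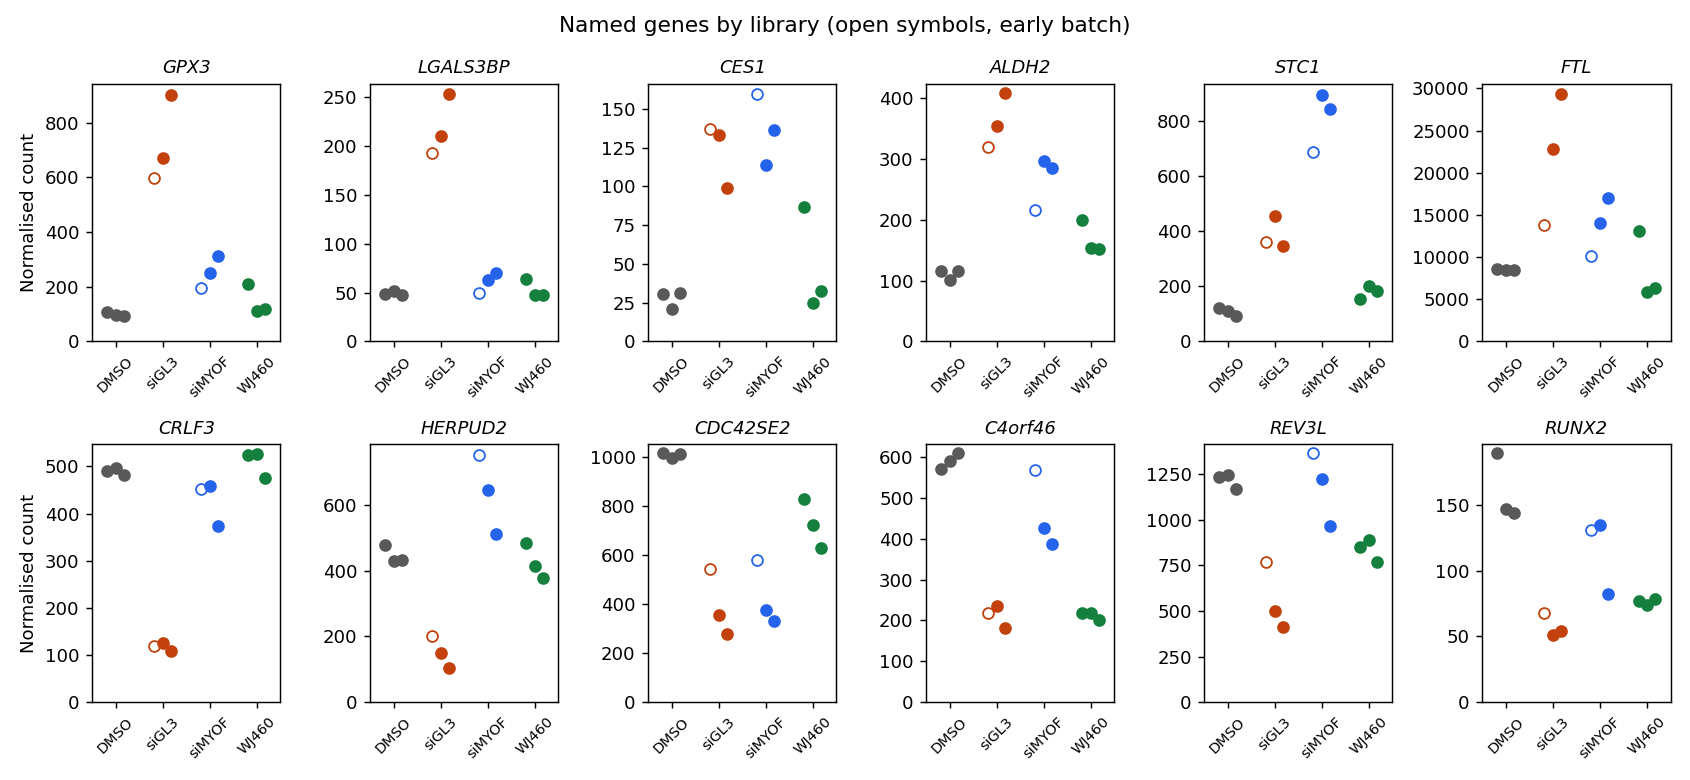
Normalised counts of 12 of the genes with large differences, 1 point per library, in the groups DMSO, siGL3, siMYOF and WJ460; open symbols are the early batch, and each panel has its own linear axis from 0. For CRLF3 the 3 siGL3 libraries lay between 108 and 125 and the 9 other libraries between 374 and 526, whereas STC1 was higher still with siMYOF.

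Set beside the other transfected group, these genes followed different patterns. CRLF3 was at 453, 458 and 374 with siMYOF, HERPUD2 at 752, 647 and 513, and REV3L at 1367, 1222 and 965, levels near or above those of DMSO. LGALS3BP was at 49.3, 62.6 and 69.9 with siMYOF, close to the DMSO level. In contrast CDC42SE2 was at 581, 376 and 333 with siMYOF, close to the siGL3 level, CES1 at 159, 114 and 136, and MYL9 at 1506, 1267 and 1429 against 144, 98.2 and 124 with siGL3 and 24.6, 26.5 and 25.6 with DMSO. siMYOF shares the DMSO control with siGL3, so the values are given without a test of likeness. Against DMSO, siMYOF had 3948 genes higher (26.8%) and 3942 lower (26.8%).

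A comparison of transfected with untransfected cells that shares no library with siGL3 and DMSO is that of siMYOF with WJ460. In late libraries 28.8% of genes tested were higher in siMYOF than in WJ460 and 28.2% lower. Of the 2386 genes higher with siGL3 than DMSO in late libraries, 1080 were also higher with siMYOF than WJ460, 509 were lower and 797 were not called. The 1080 genes were 45.3% of the first list and 25.5% of the second. Of the 2329 genes lower with siGL3, 969 were also lower with siMYOF than WJ460, 571 were higher and 789 were not called. The 969 genes were 41.6% of the first and 23.3% of the second. Across genes the log2 differences of both comparisons had a Pearson correlation of 0.26, a description over 14720 genes of 1 batch that are not independent of each other, in which MYOF silencing and the compound also differ.

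By absolute amount, the largest gains were in abundant messages. MT-RNR2, the large mitochondrial ribosomal RNA, was at 35179, 35729 and 43111 normalised counts with siGL3 and at 18465, 18117 and 18147 with DMSO, a log2 difference of 1.03 ± 0.10. The 13 protein-coding mitochondrial transcripts did not follow it: their median was -0.13, and MT-ND3 alone was called, at 0.66. EEF1A1, the translation elongation factor, gained 0.30, ANXA2 0.60 and GAPDH 0.45. FTL, the ferritin light chain, was at 13833, 22770 and 29395 against 8590, 8523 and 8516, a difference of 1.55 ± 0.31 (adjusted p = 0.0075, limma) with the early library lowest in siGL3. The largest losses were in AKT2, a kinase of insulin and growth factor signalling, which was at 21151, 20058 and 19678 against 36661, 38558 and 38755, in PXN, the focal adhesion adaptor paxillin, at 2614, 8203 and 7703 against 12859, 13178 and 13058, and in CALR, PRSS23 and HNRNPA2B1, by 0.25 to 0.35 on the log2 scale. AKT2 levels were tight within both groups, while PXN in the early library was far below its late partners.

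The seed letters of siGL3 were looked for in human messages. The siRNA's sense sequence is given in the study's methods, and its reverse complement was taken as the guide strand. A message pairs with bases 2 to 8 of that guide where it holds TACTTCG, and with bases 2 to 8 of the other strand where it holds AGCGTAA. Both were searched on the message strand in the 3' UTR of the canonical GENCODE transcript (version 44, GRCh38) of each gene tested. Of the 12 largest falls, 10 had an annotated 3' UTR, of which 4 held the guide-strand letters and 2 those of the other strand, while none of the 11 largest rises with a 3' UTR held either. Of all genes tested with a 3' UTR, 1.38% held the first and 1.51% the second. The falls were chosen by their values, so these counts are a description. The 6 matches are printed as 30 bases of message around the match, which is in capitals, since they show which letters the falling genes share:
CDC42SE2, chr5:131394405-131394434 (+ strand): ggcctttaaaaaTACTTCGtaagtacatta
C4orf46, chr4:158669583-158669612 (- strand): tttggcaTACTTCGttgtttaataatgact
HOXB6, chr17:48595820-48595849 (- strand): ctggacgtgaaaTACTTCGatgatgatgat
REV3L, chr6:111299616-111299645 (- strand): atcaagacgtgtTACTTCGagatatccatt
CRLF3, chr17:30783029-30783058 (- strand): gcaaaaaaatatAGCGTAAatacttatttt
HERPUD2, chr7:35633455-35633484 (- strand): ctaacagaacatAGCGTAAcaatattggtc

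Over all genes with such letters, the median lay slightly below that of other genes. The 170 genes with the guide-strand match had a median log2 difference of -0.15, with 61 lower (35.9%) and 20 higher (11.8%), and -0.14 in late libraries. The 186 genes with the other-strand match had a median of -0.12, with 59 lower (31.7%) and 22 higher (11.8%), and -0.13 in late libraries. Among the 12002 genes with neither match the median was 0.02, with 15.8% lower and 18.5% higher. Genes with a match also had long 3' UTRs, with a median of 3379 bases against 1300 bases in genes without. Restricted to the 2076 genes without a match whose 3' UTR was at least as long as that median, 21.8% were lower, 14.8% higher, and the median was -0.04, between the other sets. A match in the coding sequence alone went with medians of -0.05 in 538 genes for the guide-strand letters and -0.07 in 189 genes for the others. With siMYOF, whose sequence differs, the same gene sets had medians against DMSO of 0.11 for the guide-strand match and 0.06 for the other-strand match. In that comparison genes without a match had a median of 0.02, and those without a match and with a long 3' UTR had 0.06. With WJ460, which is no siRNA, the matched sets had medians against DMSO of -0.12 and -0.08. These lay below the 0.02 of genes without a match and above the -0.19 of those without a match and with a long 3' UTR. Further genes with a guide-strand match and a fall past the threshold were SMAD7, an inhibitor of TGF-beta signalling (-1.19), and CDK1, the mitotic kinase (-0.91). A match marks shared letters and is not by itself a site.

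**Figure D2:**
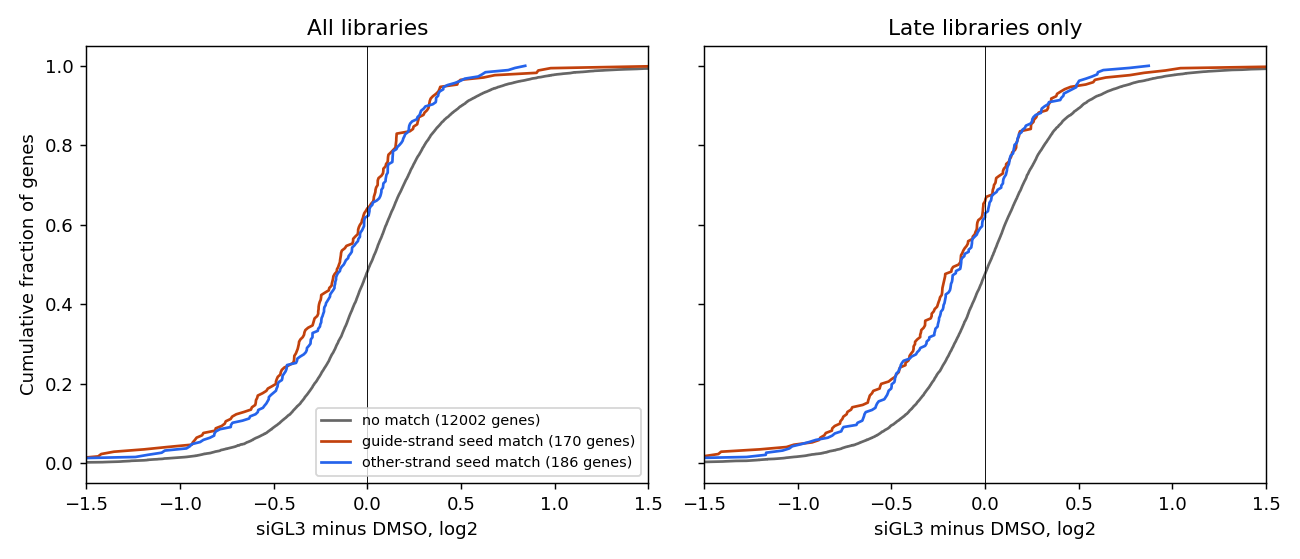
Cumulative fraction of genes by log2 difference of siGL3 minus DMSO, from all libraries (left) and late libraries only (right), for genes without a seed match, with a guide-strand match and with an other-strand match in the 3' UTR; values beyond ±1.5 are not shown. Both matched curves lay to the left of the unmatched curve, with medians of -0.15 and -0.12 against 0.02 in all libraries.

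Of 15 machinery genes of RNA interference tested, 4 were higher (26.7%) and 3 lower (20%), and the median was 0.00. Of all genes, 16.1% were higher and 16% lower. Among the Argonautes, which carry the guide, AGO1 was at 1136, 1238 and 1025 normalised counts with siGL3 and at 1538, 1511 and 1398 with DMSO, a log2 difference of -0.38, and AGO3 differed by -0.57. Neither gene's groups overlapped. SND1, a nuclease-domain protein of the silencing complex, was higher by 0.80, although in its early library the count of 3511 lay below the DMSO range of 3809 to 3960, as it did in the early siMYOF library at 3201.

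Interferon-stimulated genes split. Of 26 tested, 10 were higher (38.5%) and 2 lower, with a median of 0.29 against -0.01 for all genes. The 2 lower were IRF9 at -1.48 (adjusted p = 0.025, limma) and IFITM2 at -0.32 (adjusted p = 0.0051, limma). With late libraries only, 10 members were higher and 1 lower. Apart from LGALS3BP, MX1, a GTPase that restricts viruses, was at 53.1, 46.3 and 50.5 with siGL3 and at 20.7, 15.4 and 17.7 with DMSO, and IFI35 rose by 1.08 ± 0.14 and SAMD9 by 1.60. OAS3, an oligoadenylate synthetase, was at 1694 and 1554 in late siGL3 libraries against 864 to 915 in DMSO, but at 682 in the early one. IFIT1 and ISG15, widely used markers of the interferon response, did not pass the test. IFIT1 was at 193, 211 and 190 against 190, 185 and 203, and ISG15 at 71.9, 141 and 194 against 119, 152 and 127. Among 15 RNA sensors and their signalling partners 6 were higher (40%, against 16.1% of all genes) and 3 lower (20%, against 16%). The kinase IKBKE was at 73.9, 85.8 and 90.8 against 24.6, 24.3 and 24.6, and TMEM173 (STING) differed by 1.00. In the MHC class I list 9 of 16 members rose and none fell, with a median of 0.53. HLA-B, HLA-C and the immunoproteasome subunits PSMB8 and PSMB9 rose by 0.84 to 1.02, with the reservation that HLA genes share reads. Among NF-kB targets 6 of 16 rose (37.5%) and 2 fell (12.5%). RELB rose by 1.01 and the chemokine CXCL8 from 2.21 or less to between 8.06 and 12.2 normalised counts. The CXCL8 counts were low in both groups. CXCL1, another chemokine, was at 43.7, 12.4 and 6.55 against 22.6, 34.2 and 29.5, a fall of 1.27 on the log2 scale although the early library lay above every DMSO library. Its call was lost without siGL3 replicate 3, at -0.78, and without the batch term, at -0.83.

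Promoters of list members were searched for the letters by which the factor of each list is best known, on both strands of the 300 bases from 250 before to 50 after each RefSeq gene start (GRCh38.p14). GAAANNGAAA, the core of the interferon-stimulated response element, was held by 15 of 19 interferon-stimulated genes with a promoter entry, by 8 of the 9 higher members among them, by 3.65% of all 27305 promoters and by 2.76% of the 10327 promoters of genes tested. The lists hold known targets, so these shares describe the lists. The promoters of the 2 members with the smallest p are printed with the letters in capitals, as examples of a gene that rose in all libraries and one that rose in late libraries only:
LGALS3BP, chr17:78979874-78980173 (- strand): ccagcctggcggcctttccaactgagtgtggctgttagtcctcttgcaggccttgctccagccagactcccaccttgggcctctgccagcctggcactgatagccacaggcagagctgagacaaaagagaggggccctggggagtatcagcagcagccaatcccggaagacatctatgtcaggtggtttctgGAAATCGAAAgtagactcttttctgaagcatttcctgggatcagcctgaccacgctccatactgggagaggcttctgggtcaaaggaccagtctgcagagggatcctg
OAS3, chr12:112938224-112938523 (+ strand): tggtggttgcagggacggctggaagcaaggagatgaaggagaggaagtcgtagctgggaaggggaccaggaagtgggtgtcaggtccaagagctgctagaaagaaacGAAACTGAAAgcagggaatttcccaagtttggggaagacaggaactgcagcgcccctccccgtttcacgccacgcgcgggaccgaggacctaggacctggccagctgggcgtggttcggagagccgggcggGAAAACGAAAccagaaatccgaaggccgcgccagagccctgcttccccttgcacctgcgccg

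Lysosomal genes were mostly higher. Of 36 tested, 27 were higher (75%) and none lower, with a median log2 difference of 0.39 and of 0.41 in late libraries. CD63, a membrane protein of late endosomes, was at 4532, 6241 and 7253 normalised counts with siGL3 and at 3399, 3231 and 3171 with DMSO. Cathepsin D (CTSD), a major lysosomal protease, was at 732, 1071 and 1706 against 555, 645 and 661, and GAA, the lysosomal glycogen hydrolase, at 501, 519 and 604.5 against 288, 309 and 318. In these 3 genes no siGL3 library fell within the DMSO range. The early library was less uniform: it lay above all DMSO libraries in 19 of the 27 genes called. SQSTM1, an autophagy receptor counted in the same list, was at 14334 and 18171 in late siGL3 libraries, 6406 to 6690 in DMSO and 4387 in the early siGL3 library, so that its call at 1.26 rests on the late libraries and the batch term. The list was on average lower in the early batch, by a median of 0.21 on the log2 scale. Of 32 autophagy genes 10 rose (31%, against 16.1% of all genes) and 1 fell (3%, against 16%). GABARAPL1, which joins the growing autophagosome membrane, was at 208, 85.8 and 99.2 against 25.6, 38.6 and 26.6, and MAP1LC3B, the marker LC3, rose by 0.41. Against the same DMSO libraries, siMYOF had 29 lysosomal genes higher and 2 lower, where 26.8% of all genes were higher. The untransfected WJ460 cells had 21 higher and 6 lower with a median of 0.35, where 27.3% of all genes were higher and 25.6% lower.

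TCACGTGA, a strong form of the CLEAR element that TFEB and related factors bind in lysosomal genes, stood in the promoters of 5 of 25 lysosomal genes with an entry, 4 of them among the 19 higher, in 1.04% of all promoters and in 1.93% of those of genes tested. The letters overlap the general E-box CACGTG. CTSA and GAA, higher by 0.82 and 0.93, carried them, in GAA at 2 places, and are shown as the 2 higher members with the smallest p:
CTSA, chr20:45891085-45891384 (+ strand): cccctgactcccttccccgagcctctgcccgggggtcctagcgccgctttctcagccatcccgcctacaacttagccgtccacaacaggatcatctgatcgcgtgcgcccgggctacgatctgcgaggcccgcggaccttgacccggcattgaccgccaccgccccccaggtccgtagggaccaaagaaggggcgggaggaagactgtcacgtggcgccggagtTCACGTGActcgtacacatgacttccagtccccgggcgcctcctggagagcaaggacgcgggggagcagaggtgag
GAA, chr17:80101331-80101630 (+ strand): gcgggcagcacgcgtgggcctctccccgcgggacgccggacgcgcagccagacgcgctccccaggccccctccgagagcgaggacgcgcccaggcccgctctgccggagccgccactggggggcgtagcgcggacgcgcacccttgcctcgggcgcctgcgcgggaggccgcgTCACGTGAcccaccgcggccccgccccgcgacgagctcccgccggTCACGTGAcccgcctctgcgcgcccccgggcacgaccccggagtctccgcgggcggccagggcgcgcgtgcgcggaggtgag

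Membrane traffic and repair genes rose alongside. Of 21 ferlins, annexins and repair genes 14 rose (66.7%, against 16.1% of all genes) and none fell. Annexins bind membranes in a calcium-dependent manner. ANXA6 was at 2301, 3015 and 3012 against 1548, 1494 and 1496, ANXA2 was at 49331, 46291 and 47735 against 31888, 30293 and 30720, and S100A11, a partner of annexins, rose by 0.89, while ANXA1 and ANXA7 did not pass the test. The ESCRT-III genes CHMP3 and CHMP4B rose by 0.27 and 0.41. For COPII, COPI and other endoplasmic reticulum to Golgi genes the count was 22 higher (59.5%) and 1 lower of 37. SEC31A, COPA and COPB2, the 3 members with the smallest p, rose by 0.52 to 0.64. Of 25 endocytosis and caveola genes 12 rose (48%), among them RAB5A of early endosomes at 0.52. In 5 of these 12 the early siGL3 library lay above all DMSO libraries. The caveolins fell: CAV1 was at 8023, 5533 and 4990 against 9150, 8732 and 8965, and CAV2 differed by -0.69. Proteasome subunits rose in 24 of 31 cases (77.4%) and fell in 1 (PSMD3), with PSMD1 the highest at 0.59. Their median was 0.30. The untransfected WJ460 cells, set against the same DMSO libraries, had 26 proteasome genes higher and 1 lower, with a median of 0.40. For siMYOF the count was 18 higher and 4 lower. Of all genes, 27.3% were higher with WJ460 and 26.8% with siMYOF.

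Calcium and phosphate are components of the transfection mix. Of 26 calcium channels, pumps and sensors 8 were higher (30.8%) and 5 lower (19.2%), with a median of 0.06. Of all genes, 16.1% were higher and 16% lower. ORAI2, a store-operated channel subunit, rose by 0.90 ± 0.08, and the calcium pumps ATP2B4 and ATP2A3 by 0.93 and 0.82. Other members went the other way: the pump ATP2B1 differed by -0.43 and the channel TRPC1 by -0.40. RCAN1, a calcineurin target and inhibitor, was at 583, 841 and 941 with siGL3 against 344, 309 and 338 with DMSO, while NFATC2, a calcineurin-regulated transcription factor, differed by -0.89. Of 13 phosphate and mineralisation genes 4 were higher (30.8%) and 1 lower (7.69%). SPP1 (osteopontin) was at 3.36, 10.2 and 6.55 against 2.95, 1.10 and 2.95, a level of a few reads, and its call was lost in DESeq2 (adjusted p past 0.05) and without siGL3 replicate 2 or DMSO replicate 2.

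Of 20 NRF2 and glutathione genes 12 rose (60%, against 16.1% of all genes) and 1 fell (5%), with a median of 0.42. HMOX1, the heme oxygenase, was at 354, 733 and 991 against 288, 284 and 280, NQO1 at 2752, 3188 and 3701 against 1843, 1749 and 1921, and the thioredoxin gene TXN at 2997, 2344 and 2792 against 1769, 1560 and 1571. Both ferritin chains rose, FTH1 by 0.80 in a call lost without siGL3 replicate 3 and turned to -0.99 without the batch term, whereas TFRC, the transferrin receptor, fell by 0.27, a call lost without the same library. FTL and FTH1 have many processed copies in the genome, so their counts are uncertain. Of 22 glycolysis genes 15 rose (68.2%) and 1 fell, with PKM, GAPDH and SLC16A1 higher by 0.45 to 0.55. In 7 of the 15 that rose the early siGL3 library lay above all DMSO libraries. In PKM and GAPDH the early siGL3 library lay below every DMSO library while both late ones lay above. ATF4, the master factor of the amino acid response, fell by 0.98, with 3286, 1715 and 1788 against 3585, 3592 and 3683. Of the 31 genes in its list, ATF4 included, 6 fell (19.4%), near the 16% of all genes. Only 1 rose (3.23%, against 16.1% of all genes). The ATF4 target ASNS, at a level of a few reads, was at 14.8, 3.39 and 3.74 against 13.8, 14.3 and 7.87, with the early library above every DMSO library. Its difference was -1.46 with the batch term (adjusted p = 0.0087, limma), and -0.87 with the 6 libraries and no batch term (adjusted p = 0.41).

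Genes of DNA replication were mostly lower. Of 39 S phase genes none were higher and 25 lower (64.1%), with a median of -0.34, and -0.30 in late libraries, where 23 were lower and 2 higher. UHRF1, which maintains DNA methylation at replication forks, was at 1020, 725 and 707 normalised counts with siGL3 and at 1367, 1543 and 1533 with DMSO. E2F1, the transcription factor of S phase entry, was at 745, 707 and 742 against 1093, 1124 and 1093, and MCM3 of the replicative helicase at 2902, 3181 and 2877 against 4367, 4299 and 4265. In these genes the groups did not overlap. The early library lay with its partners in E2F1 and MCM3, and between them and DMSO in UHRF1. The early library was below all DMSO libraries in 23 of the 25 genes. TYMS, thymidylate synthase, was at 4411 and 4291 in late siGL3 libraries against 6509 to 6970 in DMSO and at 1334 in the early one. DNA repair genes included 14 of 29 that fell (48.3%, against 16% of all genes) and 2 that rose (6.9%). FANCI and RAD51AP1 fell by 0.63 each, while XRCC5, a Ku subunit, rose by 0.34. Against the same DMSO libraries, siMYOF had 24 and WJ460 29 of the 39 S phase genes lower. Of all genes tested, 26.8% were lower with siMYOF and 25.6% with WJ460. In the G2/M list 17 of 38 fell (44.7%, against 16% of all genes) and 1 rose (2.63%). With late libraries only, 12 fell and 1 rose. CDK1 was at 1986, 1661 and 1502 against 2998, 2801 and 2800, and TOP2A at 4233, 5338 and 4406 against 7878, 7340 and 7424, whereas PLK1, CDC20 and MKI67 did not pass the test. Of 24 p53 targets and growth arrest genes 2 rose (8.33%) and 1 fell (4.17%), below the shares of all genes. Of 14 replication-dependent histone genes 6 rose (42.9%, against 16.1% of all genes). Such histone genes share reads among copies and mostly lack poly(A) tails.

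TTTCGCGC or TTTGGCGC, 2 forms of the E2F site, stood in the promoters of 12 of 35 S phase genes with an entry, 7 of them among the 22 lower, in 1.18% of all promoters and in 2.04% of those of genes tested. Those of MCM3 and E2F1, the 2 lower members with the smallest p that hold the letters, are given:
MCM3, chr6:52284693-52284992 (- strand): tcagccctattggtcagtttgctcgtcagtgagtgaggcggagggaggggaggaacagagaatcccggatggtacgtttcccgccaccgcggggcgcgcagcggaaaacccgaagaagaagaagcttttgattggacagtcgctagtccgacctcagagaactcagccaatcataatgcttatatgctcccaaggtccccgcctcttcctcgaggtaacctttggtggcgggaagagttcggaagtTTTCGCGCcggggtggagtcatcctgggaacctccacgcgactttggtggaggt
E2F1, chr20:33686336-33686635 (- strand): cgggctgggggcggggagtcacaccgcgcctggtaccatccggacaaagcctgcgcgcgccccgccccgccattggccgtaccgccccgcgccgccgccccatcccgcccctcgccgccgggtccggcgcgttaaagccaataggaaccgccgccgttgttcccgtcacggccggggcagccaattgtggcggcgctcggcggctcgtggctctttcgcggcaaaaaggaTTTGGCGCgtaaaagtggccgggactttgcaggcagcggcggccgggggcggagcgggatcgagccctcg

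**Figure D3:**
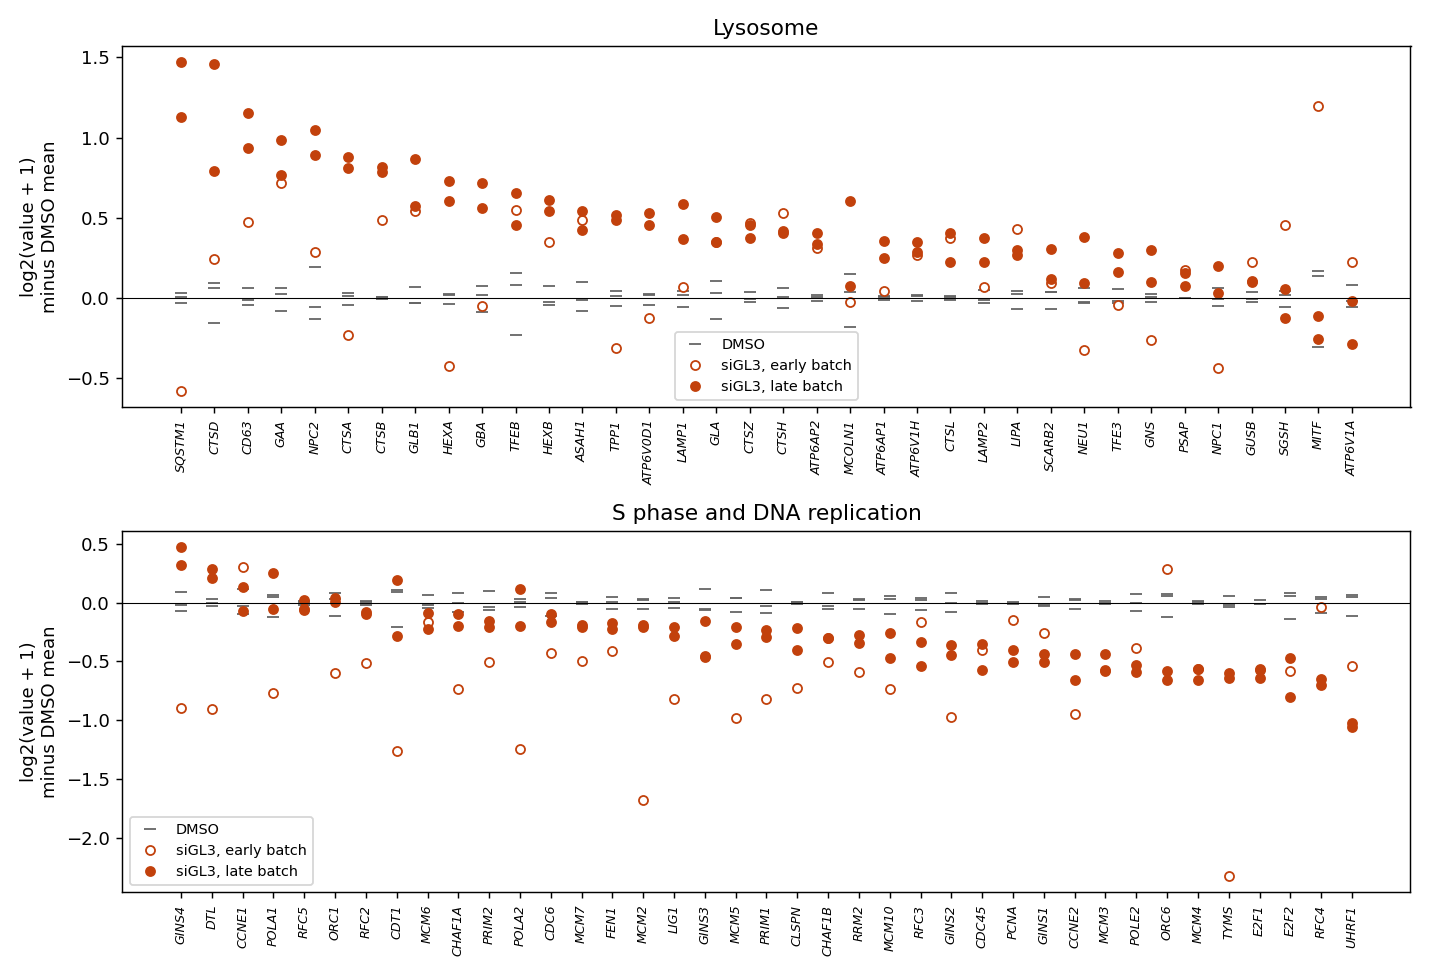
Members of the lysosome list (top) and the S phase list (bottom), ordered by log2 difference; dashes are the 3 DMSO libraries, filled points the late and open points the early siGL3 libraries, as log2(value + 1) minus the DMSO mean, with no batch term. Late siGL3 points of most lysosomal genes lay above the DMSO dashes and those of most S phase genes below, while the early points of SQSTM1 and TYMS lay far from both.

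In a list of small nucleolar RNA host genes and nuclear long noncoding RNAs, most members fell as well. Of 17 tested, 10 were lower (58.8%, against 16% of all genes) and 1 higher, with a median of -0.52. SNHG1 was at 394 and 435 normalised counts in late siGL3 libraries and at 906, 911 and 939 in DMSO, but at 1069 in the early siGL3 library, and SNHG3 and SNHG15 behaved likewise. This list was higher in the early batch by a median of 1.01, and the early siGL3 library lay below all DMSO libraries in 3 of its 10 lower genes. Of 26 genes of SR proteins, splicing kinases and heterogeneous nuclear ribonucleoproteins 9 fell (34.6%, against 16% of all genes). They included HNRNPH1 by 0.61 and SRSF5 by 0.55, with the early library again above or near DMSO.

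Of 18 integrins and laminins 10 were higher (55.6%, against 16.1% of all genes) and 1 lower. In 6 of these 10 the early siGL3 library lay above all DMSO libraries. ITGA5, the fibronectin receptor chain, was at 1121, 2166 and 2189 against 943, 887 and 879, a difference of 1.28 ± 0.07 (adjusted p = 4.1e-09, limma), and with siMYOF at 3003, 5648 and 6717. Matrix proteases and their inhibitors had 9 of 15 higher (60%) and 1 lower. MMP14, the membrane-anchored collagenase, and TIMP2 rose by 0.74 and 0.72. The early siGL3 library lay above all DMSO libraries in only 3 of the 9, so most of these calls rest on the late libraries and the batch term. Of 22 SRF and actomyosin genes 10 rose (45.5%), among them TPM4 at 0.69 and MYL9 at 2.11, and 1 fell. In 5 of the 10 that rose the early siGL3 library lay above all DMSO libraries. Collagens were mixed, with COL6A2 higher by 1.07 and COL1A1 lower by 0.89. HBEGF, an EGF receptor ligand, was at 132, 227 and 265 against 83.7, 101.5 and 79.7. EGR1 was at 188, 125 and 147 against 78.8, 77.2 and 71.8 and JUN rose by 0.84, but of 22 AP-1 and immediate-early genes 3 were higher and 2 lower, near or below the shares of all genes.

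**Figure D4:**
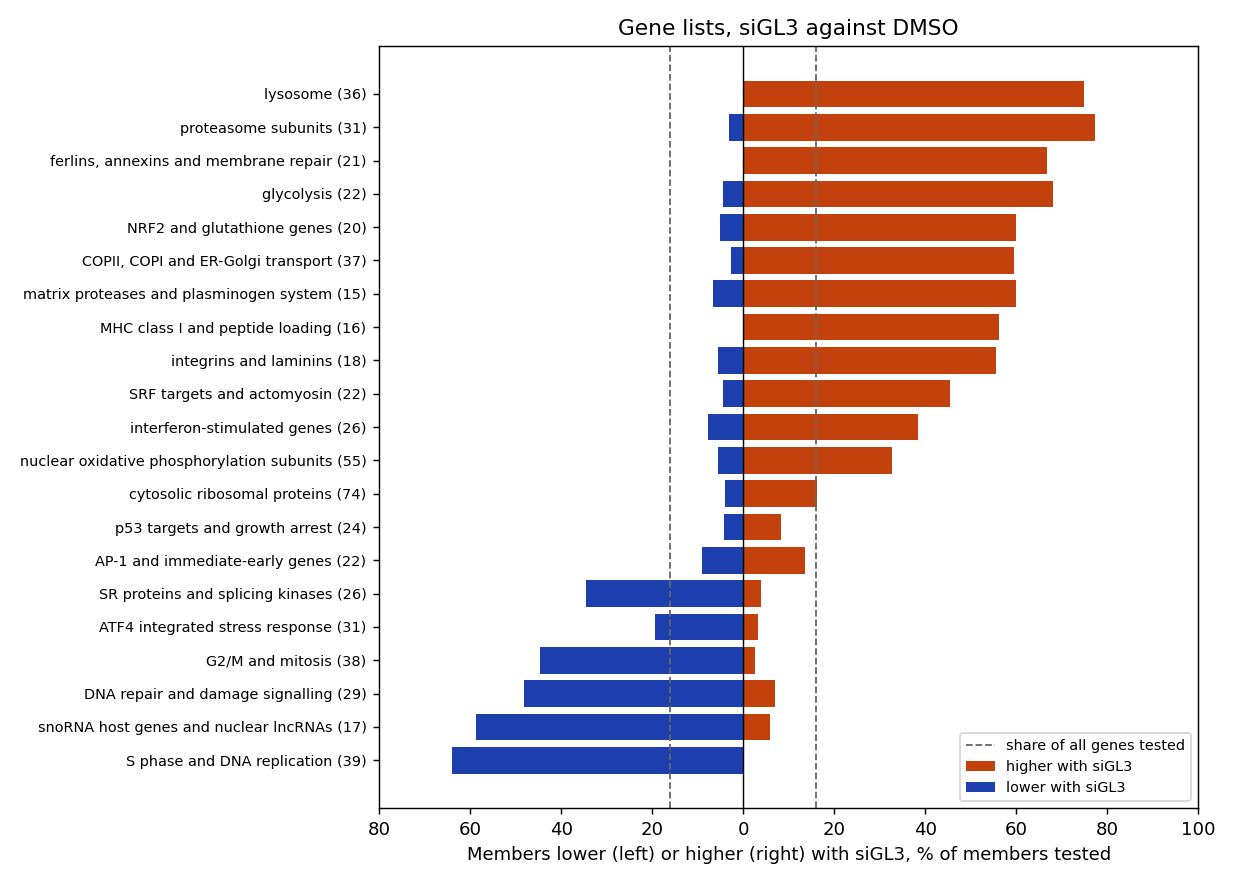
Share of each list's tested members (number in parentheses) that were lower (left) or higher (right) with siGL3 than DMSO by limma, with dashed lines at the shares of all genes tested, 16% and 16.1%. Lysosomal and proteasome genes reached 75% and 77.4% higher, S phase genes 64.1% lower.

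Other lists had few members called, or members called in both directions, where 32.1% of all genes were called. Of 74 cytosolic ribosomal protein genes 12 were higher (16.2%, the share of all genes) and 3 lower, with a median of 0.09, and with late libraries only 23 were higher and 2 lower. Mitochondrial ribosome genes were 7 higher and 5 lower of 58 (20.7% called). The share called was above that of all genes, with medians of 0.00 to 0.04, in the next 3 lists. Peroxisome genes were 7 higher and 5 lower of 28 (42.9% called). Heat shock genes were 4 higher and 4 lower of 20 (40% called), in which HSPA1A fell by 0.61 and HSPB8 rose by 1.32. Of 27 endoplasmic reticulum chaperone and unfolded protein genes 7 rose and 4 fell (40.7% called). Nuclear genes of oxidative phosphorylation were in between, with 18 higher and 3 lower of 55, of which NDUFB5 was highest at 0.43.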

How the data were processed

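Polyadenylated RNA of 12 libraries was sequenced from a stranded kit. As the methods and processing notes state, the authors mapped reads with STAR to GRCh38 and quantified genes with Salmon, using Ensembl annotation and DESeq2. The deposited signal values were gene counts divided by 1 size factor per library. Whole reads were recovered for 100% of values (tolerance 0.001), and the 12 libraries held 12335147 to 19847210 reads over 60617 genes. Groups, replicates and batch followed the sample labels. The main test was limma 3.58.1 (R 4.3.3) on log2(value + 1) with trended and robust variance, 4 groups and batch, over 14720 genes with a mean of at least 5, two-sided, with Benjamini-Hochberg adjustment and a threshold of 0.05. In this fit the siMYOF libraries bear on the comparison through the batch term. Both siMYOF and WJ460 libraries also bear on it through the spread, which all 12 libraries share. edgeR 4.0.16 and DESeq2 1.42.0 were alternatives on the recovered reads, in which edgeR called 2455 genes higher and 2359 lower. Differences are on the log2(value + 1) scale, which understates changes of low genes.

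Named were the 12 largest rises and falls called in both the main and the late fit with a mean of at least 50 and no overlap between groups, up to 3 members per list with the smallest p, the 5 largest gains and losses in normalised counts, MYOF and the genes most different between batches. Genes outside this rule were chosen after their values were seen: FTH1, SMAD7, MX1, SAMD9, IFIT1, ISG15, PSMB8, PSMB9, CTSD, GAA, SQSTM1, ANXA1, ANXA7, ASNS, E2F1, MCM3, XRCC5, PLK1, CDC20, MKI67, PSMD3, CHMP3, CHMP4B, CXCL1, ATP2B1, TRPC1, IRF9 and IFITM2. Members and all 59 lists were chosen with earlier results of these data known, and lists were described without a test. Only STAR and Salmon are named in the processing notes, with no version.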

Additional observations from a re-analysis of the deposited data

How the results depend on the processing

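Under the alternatives tried no named gene was called in the opposite direction, with ATP2B1, TRPC1, IRF9 and IFITM2 not followed there. The number of genes called between siGL3 and DMSO moved by over 1.5 times only where the batch term was dropped: without it 1331 genes were called (760 higher, 571 lower), and with the 6 siGL3 and DMSO libraries alone 527 (333 higher, 194 lower), against 4720. FTH1 turned to -0.99 in both, with 200.3 normalised counts in the early siGL3 library. Of the 201 named genes, 86 and 130 lost their call in these 2 fits, 2 did so with late libraries only, none in edgeR and 1 in DESeq2. Leaving out 1 library gave 3469 to 5164 genes called, 1775 to 2614 higher and 1694 to 2550 lower, the lowest without siGL3 replicate 3. Both late-library alternatives added were chosen after seeing the data: edgeR gave 2541 higher and 2332 lower, and scaling by total reads 1665 and 3113. Same-numbered siGL3 and DMSO libraries did not deviate together from their group means (correlations of -0.01, -0.04 and 0.01). The early library weighs heavily on the siGL3 means, so this check could miss a pairing. A replicate block gave 4763 genes called, and for the batch term 2028 genes higher. The batch differences numbered 3822 to 6982 with 1 library left out (1635 to 3292 higher, 2187 to 3690 lower), the lowest without siGL3 replicate 1. No DMSO library was in the early batch, so early values could be compared with DMSO only across batches.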
